A study of Homo sapiens with 4 samples.

Results

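The 42 genes described here encode the regulators that carry cells from G2 into and through mitosis: cyclins and mitotic kinases, kinetochore and spindle checkpoint proteins, and proteins of the spindle, the chromosomes and cytokinesis. They were taken by symbol from a table of 39519 genes, and all 42 were present. Kinesin motors were left out by the rule, except CENPE, which is a kinesin by its protein and was listed for its place at the kinetochore. For the description, 16 were placed with kinases, cyclins and their regulators, 16 with kinetochore and checkpoint, and 10 with spindle, chromosome and cytokinesis.

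RNA was measured in U2OS cells, an established human osteosarcoma line. The control group, sh-NC (2 libraries), was treated with DMSO. The sh-PURB group (2 libraries) carried an inducible hairpin against PURB, a single-stranded nucleic acid binding protein, and received doxycycline at 5.0 µg/ml. The series' design text gives 72 h of knockdown. Control cells had DMSO in place of doxycycline, so knockdown and drug cannot be told apart. The labels do not say whether the libraries came from separate cultures, whether 1 or more hairpins were used against PURB, or whether the cells were clones. The p-values therefore speak of the spread among these 4 libraries alone, and that spread may be technical.

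Entry into mitosis is driven by CDK1 bound to cyclin B, held back by inhibitory phosphorylation until CDC25 phosphatases remove it. At kinetochores, which join chromosomes to spindle microtubules, the spindle checkpoint blocks CDC20, the activator of the anaphase-promoting complex (APC/C), until the chromosomes are attached. Most of these genes are transcribed late in the cell cycle. The DREAM complex holds them off in resting cells through a promoter element called CHR, and B-MYB (MYBL2) and FOXM1 switch them on together with NF-Y, which binds CCAAT boxes.

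Values are TPM, a transcript abundance scaled by transcript length and library total. TPM holds no read number, which leaves the depth of a value unknown. In a library, 13298 to 14207 genes reached 1 TPM. Of the mesenchymal markers of the line, 4 of 6 reached 1 TPM in a library (VIM at 298 to 342 TPM), and COL1A2 and ALPL did not. By the same rule 2 of 4 epithelial and 1 of 4 blood markers reached it, and 0 endothelial or adipocyte markers did. The mesenchymal list summed to at least 529 TPM in each library. No list of epithelial, blood, endothelial or adipocyte markers summed above 3.95 TPM in any library. All 42 passed the filter of 1 TPM in at least 2 libraries. PURB, the target of the hairpin, stood at 5.29 and 6.55 TPM in control libraries against 2.46 and 2.69 TPM after knockdown, which is 0.435 of control. The exact permutation test (two-sided) of the mean TPM cannot go below 0.333 with 2 libraries in each group and reached that p, while the adjusted p in limma was 0.102. A set of 5 structured noncoding RNAs (RMRP, RPPH1, RN7SK, RN7SL1 and RN7SL2) made up 62.2% and 59.4% of all TPM in sh-NC and 65.2% and 63.2% in sh-PURB, and values rescaled without them are given with the results.

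Most of the 42 genes were somewhat lower in the knockdown libraries, and the differences were small. Of the 42, 39 had a difference below 0 on the log2(TPM + 1) scale, where 58.4% of the 14269 tested genes did. The count was 34 with TPM recomputed without the most abundant and the mitochondrial genes, against 40.4% of all genes. After median-ratio rescaling it was 36, against 48.8%. Both sh-PURB libraries lay below both sh-NC libraries for 30 of the 42 (71.4%), against a background of 29.3% of all tested genes. They lay above them for 1, CDC20, against a background of 18.6%. The median difference was -0.28, with -0.06 for all tested genes.

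None of the 42 passed an adjusted p of 0.05 in limma, where 0.203% of tested genes were called lower and 0.0841% higher (29 and 12 genes; with recomputed TPM 34 and 26 genes, or 0.239% and 0.183%). At an unadjusted p under 0.05, 14 were lower, with a background of 9.53%, and 0 were higher, with a background of 5.77%. With recomputed TPM 6 were lower and 1 higher, against backgrounds of 5.91% and 10.8%. After median-ratio rescaling 10 were lower and 0 higher, where 1101 and 1041 of the 14269 tested genes were. When protein-coding genes alone were rescaled to a common sum and fitted, 2 of the 42 were called lower, NUSAP1 and TOP2A, where that fit called 2.15% of genes lower and 1.33% higher. In bulk RNA, fewer cells in G2 or mitosis and less of these RNAs per cell cannot be told apart.

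The size of the shift moved with the scale. With recomputed TPM the median of all genes was 0.08 and that of the 42 was -0.14, with 34 of the 42 and 40.4% of all genes below 0. Then 19 of the 42 were lower without overlap, against a background of 18.2%, and 2 higher, against 31.6%. The gap between the median of the 42 and that of all genes was -0.22 as deposited, -0.21 with recomputed TPM and -0.21 after median-ratio rescaling. Both rescalings divide each library by a single factor and shift most genes almost alike. The gap could therefore hardly change, and its steadiness is no separate result. As a share of protein-coding TPM, which the structured RNAs do not enter, the 42 genes made up 0.550% and 0.564% of the sh-NC libraries and 0.474% and 0.465% of the sh-PURB libraries. The groups did not overlap in that share.

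**Figure D1:**
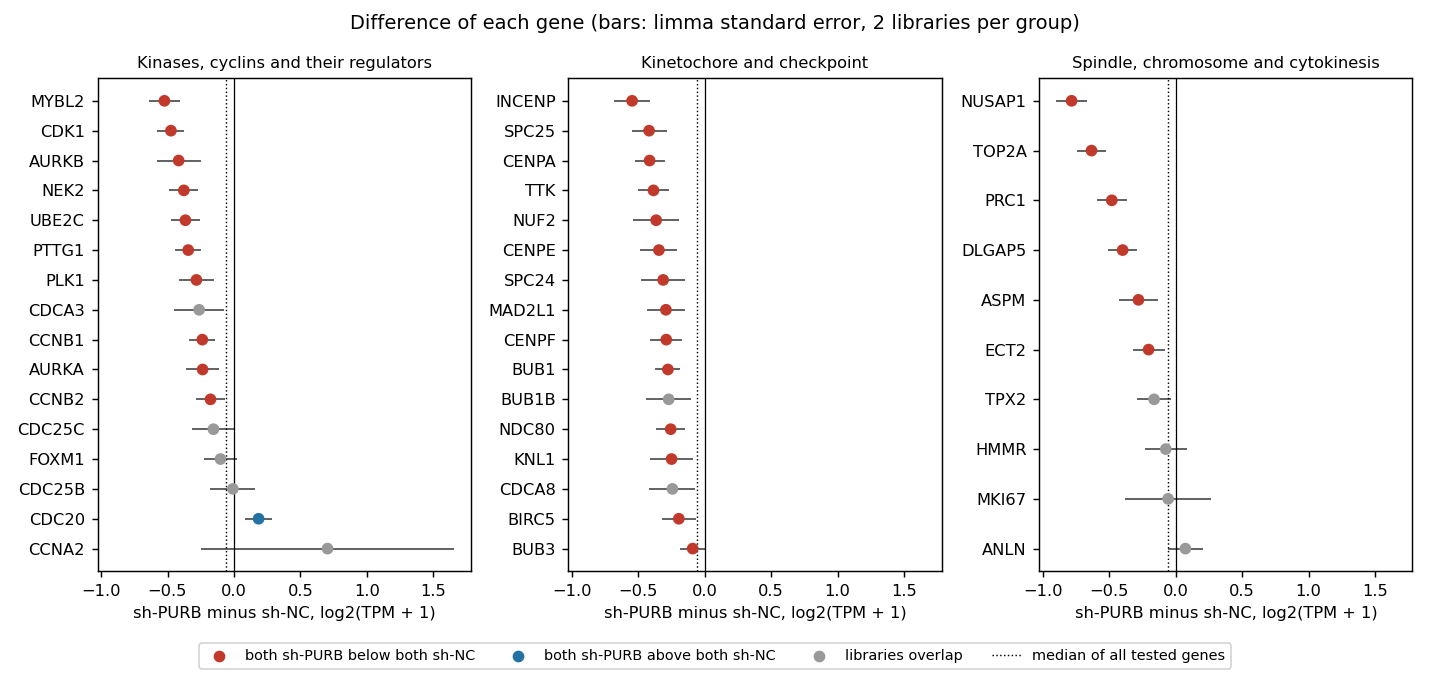
Difference of each of the 42 genes between sh-PURB and sh-NC on the log2(TPM + 1) scale, by role, with the limma standard error as bars (2 libraries per group); the dotted line is the median of all tested genes at -0.06. Red points, where both sh-PURB libraries were below both sh-NC libraries, make up 30 of the 42, and CDC20 is the 1 blue point.

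Promoters of these genes were read from RefSeq (GRCh38.p14), as windows from 250 bases before to 50 bases after each start. Of the 42 genes, 34 matched, with 44 windows. AURKA, BIRC5, BUB3, FOXM1, KNL1, TPX2, TTK and UBE2C had no entry. The letters searched were TTTGAA and TTTAAA for CHR and CCAAT for the NF-Y box, on both strands, so that TTCAAA and ATTGG also count. Matches may overlap each other, as a TTTGAA and an ATTGG of MKI67 do. CHR letters were in 32 of the 44 windows (72.7%), against 20.2% of windows of protein-coding genes and 24.0% of all windows. CCAAT was in 33 of 44 (75.0%), against 34.7% and 34.6%. In the 100 bases before a start, 16 of the 34 genes (47.1%) had both kinds of letters, as had 2.92% of protein-coding genes. The median GC content of the windows was 60.8%, with 62.3% for protein-coding genes.

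Pooled over these windows, the CHR letters tended to stand closer to the start than the CCAAT letters. The order differed between genes: in CENPF a CHR match at -115 lay upstream of CCAAT matches at -94, -58 and -33. Positions in other promoters were not counted. Where windows of a gene overlap, as in PTTG1, the same site counts more than once. Of 54 CHR matches 21 began in the last 40 bases before a start, and of 74 CCAAT matches 10 did. The median position was -29.5 for CHR and -86.0 for CCAAT, counted from the first transcribed base as 1, with -1 just before it. At least 2 CCAAT matches were in 22 of the 44 windows, against 11.4% of windows of protein-coding genes. A match is only a match of letters, and no binding was measured.

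To show how these letters sit in front of kinases, kinetochore genes and spindle genes, 9 stretches are printed, chosen after the values were seen so that genes that were lower, the 1 that was higher and 1 that overlapped are among them. Each is the longest run without an exon of any GENCODE v29 transcript in the 150 bases before the start, 5′ to 3′ on the gene's strand, with CHR and CCAAT letters of either strand in capitals. Matches outside a stretch are not shown. CHR matches at -3 in SPC25, -10 in INCENP and -7 in ASPM lie past the end of the printed bases. The plus-strand stretches are CDK1 at chr10:60778181-60778330 (the first of 2 starts), CDC20 at chr1:43358831-43358954, CENPF at chr1:214603045-214603194, INCENP at chr11:62123861-62123972 and ECT2 at chr3:172750576-172750681 (the first of 2 starts). The minus-strand stretches are NEK2 at chr1:211675631-211675761, SPC25 at chr2:168890446-168890528, ASPM at chr1:197146695-197146819 and MKI67 at chr10:128126424-128126573.
CDK1: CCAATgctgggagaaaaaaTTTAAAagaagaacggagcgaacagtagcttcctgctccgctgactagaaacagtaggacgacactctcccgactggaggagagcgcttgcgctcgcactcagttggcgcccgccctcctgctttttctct
CDC20: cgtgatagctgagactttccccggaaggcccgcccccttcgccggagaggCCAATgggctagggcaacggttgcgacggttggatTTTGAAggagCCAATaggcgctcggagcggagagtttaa
NEK2: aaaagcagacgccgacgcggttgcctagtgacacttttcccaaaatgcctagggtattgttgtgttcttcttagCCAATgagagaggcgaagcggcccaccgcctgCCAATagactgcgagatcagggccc
CENPF: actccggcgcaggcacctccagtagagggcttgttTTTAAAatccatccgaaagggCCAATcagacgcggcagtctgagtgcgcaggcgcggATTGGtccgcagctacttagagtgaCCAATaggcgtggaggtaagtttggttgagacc
SPC25: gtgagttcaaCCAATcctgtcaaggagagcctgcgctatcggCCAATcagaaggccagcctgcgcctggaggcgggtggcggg
INCENP: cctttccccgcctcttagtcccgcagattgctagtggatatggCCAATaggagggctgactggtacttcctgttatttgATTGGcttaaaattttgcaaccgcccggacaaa
ASPM: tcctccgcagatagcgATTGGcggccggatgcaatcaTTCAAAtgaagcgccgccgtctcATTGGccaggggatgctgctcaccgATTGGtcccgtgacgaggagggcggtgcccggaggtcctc
ECT2: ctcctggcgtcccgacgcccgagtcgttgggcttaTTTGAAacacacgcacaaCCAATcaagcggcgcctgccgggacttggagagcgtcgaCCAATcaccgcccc
MKI67: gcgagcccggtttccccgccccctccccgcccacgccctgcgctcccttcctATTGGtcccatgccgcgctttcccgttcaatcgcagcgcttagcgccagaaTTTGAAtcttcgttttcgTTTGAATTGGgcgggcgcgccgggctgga

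In CDC20, the gene whose libraries were higher, a CHR match at -65 lay between CCAAT matches at -100 and -55, much as at the second start of CDK1, where a CHR match at -69 lay between CCAAT matches at -78 and -46. The CDK1 libraries were lower. The bases before that second start are not printed because nearly all of them lie in exons of CDK1 transcripts. CCNB1, CCNB2, PLK1 and PTTG1 each had a CHR match at -29 or -30. The 16 genes with both kinds of letters in the 100 bases before a start had a median difference of -0.27, with 15 below 0. The other 18 had a median of -0.30, with 16 below 0. These medians are close, and no test was made between them.

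**Figure D2:**
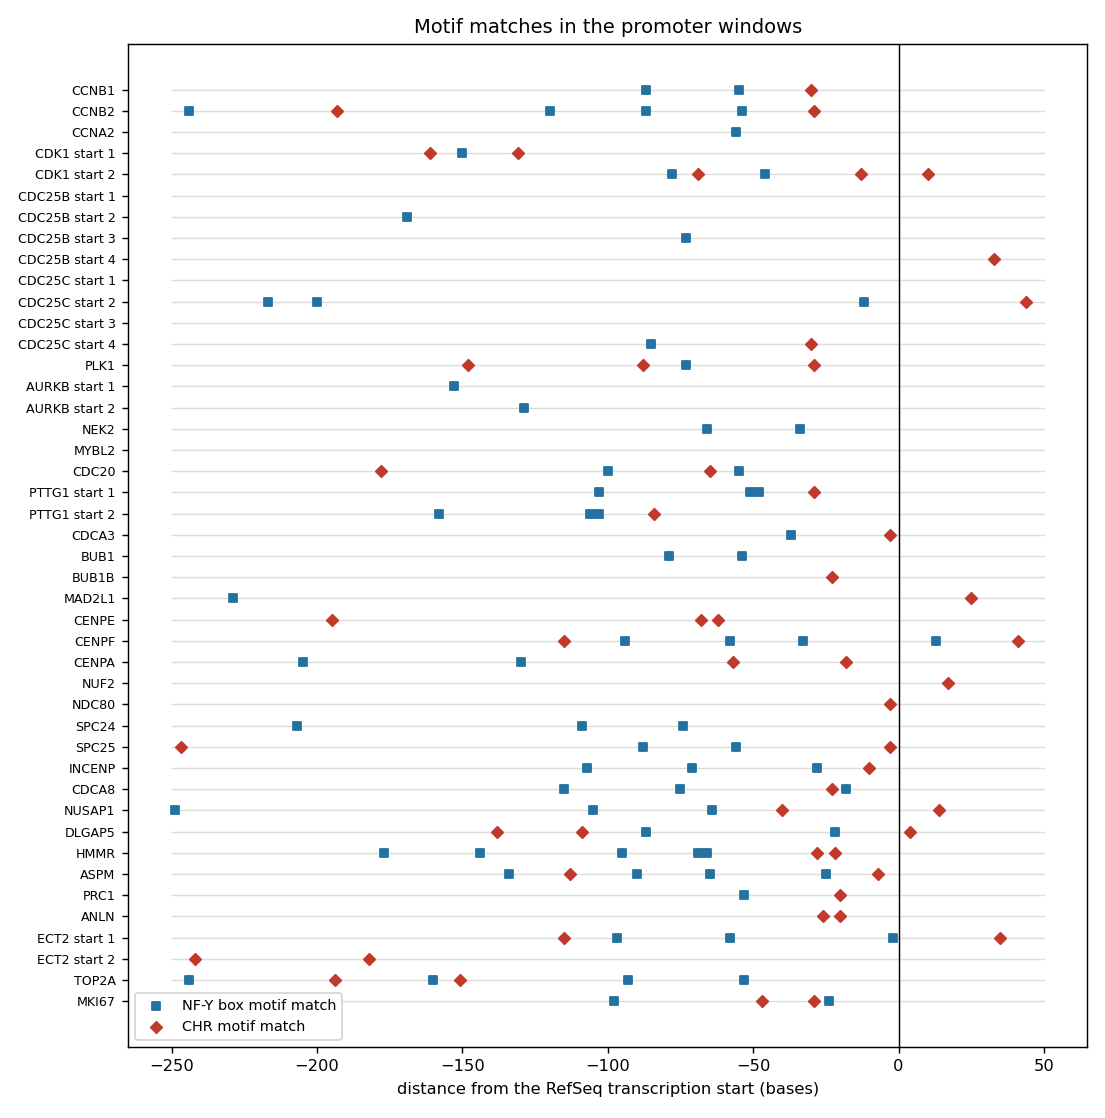
Position of each motif match in the 44 promoter windows of 34 genes, in bases from the RefSeq start; red diamonds are CHR matches and blue squares are NF-Y box matches, and genes with several starts have a row for each. Pooled over all rows, red diamonds have a median position of -29.5 and blue squares of -86.0. The order is not the same in every row: in CENPF and the first start of ECT2 a diamond lies upstream of the squares.

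Kinases, cyclins and their regulators had a median difference of -0.25, with 14 of 16 below 0, 10 lower in both sh-PURB libraries and 5 lower at an unadjusted p under 0.05. With recomputed TPM these last counts were 6 and 2. Of all tested genes 29.3% and 9.53% were lower by these rules as deposited, and 18.2% and 5.91% with recomputed TPM. CDK1, the kinase of mitotic entry (chromosome 10, 60778331 to 60794852, plus strand, GRCh38), was at 60.4 and 66.0 TPM in control libraries against 44.4 and 46.0 TPM after knockdown. The groups did not overlap, and sh-PURB was at 0.715 of control. On the log2(TPM + 1) scale the difference was -0.47 with a standard error of 0.10 (limma adjusted p = 0.138). Its partner cyclin B1, CCNB1 (chromosome 5, 69167010 to 69178245, plus strand), had the highest mean level of the 42. It was at 108 and 104 TPM in control libraries against 94.4 and 85.4 TPM after knockdown, again without overlap. Its difference of -0.24 had a standard error of 0.10 (limma adjusted p = 0.351). The ratio of CCNB1 to CDK1 was 1.79 and 1.58 in sh-NC and 2.13 and 1.86 in sh-PURB, higher in both knockdown libraries. CCNB2, the other B-type cyclin, was at 28.3 and 28.9 TPM in control libraries against 26.2 and 24.2 TPM after knockdown, without overlap. It kept a similar ratio to CCNB1 in all 4 libraries, at 0.262 and 0.278 in sh-NC and 0.277 and 0.284 in sh-PURB.

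MYBL2 encodes B-MYB, a transcription factor of this same program (chromosome 20, 43667019 to 43716496, plus strand). It was at 15.9 and 16.8 TPM in control libraries against 11.1 and 11.004 TPM after knockdown. Replicates of each group were close to each other and the groups stood apart, at 0.677 of control, with a difference of -0.52 (SE 0.12, limma adjusted p = 0.149). FOXM1, the other activator, was at 16.4 and 17.9 TPM against 15.3 and 16.6 TPM, so its groups overlapped. No motif of either kind was in the MYBL2 window.

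Among the mitotic kinases, NEK2, which acts in centrosome separation, was at 22.5 and 22.1 TPM in control libraries against 17.3 and 16.5 TPM after knockdown. AURKB, the kinase of the chromosomal passenger complex, was at 17.5 and 20.9 TPM against 12.6 and 15.8 TPM. PLK1 was at 13.5 and 12.6 TPM against 11.1 and 10.0 TPM, and AURKA at 23.9 and 24.6 TPM against 22.0 and 19.0 TPM. In all 4 kinases both sh-PURB libraries were below both sh-NC libraries, at 0.738 (AURKB) to 0.845 (AURKA) of control. The CDC25 phosphatases, which remove the inhibitory phosphates from CDK1, were the lowest expressed of the 42 by mean TPM. CDC25C was at 5.86 and 7.05 TPM against 5.27 and 6.12 TPM, and CDC25B at 7.48 and 7.63 TPM against 6.55 and 8.59 TPM. Both overlapped between groups, and the sign for CDC25B changed with the scaling (difference -0.01 as deposited, 0.14 with recomputed TPM).

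CDC20 and UBE2C, which both act with the APC/C, lay on opposite sides of control. CDC20 (chromosome 1, 43358955 to 43363203, plus strand), its activator in mitosis, was at 44.3 and 46.9 TPM in control libraries against 50.6 and 53.4 TPM after knockdown. Both knockdown libraries were above both controls, at 1.14 times control, with a difference of 0.19 (SE 0.10, limma adjusted p = 0.454). UBE2C, the ubiquitin-conjugating enzyme of the APC/C, was at 65.1 and 73.9 TPM against 52.5 and 54.8 TPM, lower without overlap. The ratio of CDC20 to UBE2C was 0.680 and 0.635 in sh-NC and 0.964 and 0.975 in sh-PURB. PTTG1, securin, a substrate whose removal lets chromatids part, was at 78.1 and 79.0 TPM against 64.7 and 58.8 TPM (difference -0.34, SE 0.10, limma adjusted p = 0.219). CDCA3, which promotes mitotic entry, was at 18.5 and 25.4 TPM against 16.5 and 19.5 TPM, with overlap.

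CCNA2, cyclin A2, stood apart in 1 library. It was at 18.5 TPM in sh-NC replicate 1, at 1.51 TPM in sh-NC replicate 2, and at 10.7 and 10.1 TPM in sh-PURB. The files hold no counts or values per transcript with which the 1.51 TPM could be checked, so it may not stand for the true level. The 2 sh-NC libraries lay on either side of the sh-PURB libraries. Its difference was 0.70 with a standard error of 0.95 (limma adjusted p = 0.783), and -0.77 without sh-NC replicate 2. The correlation of log2 levels across the 42 genes between the sh-NC libraries was 0.892, and 0.985 without CCNA2 (Pearson's r, a description over genes, which are not replicates).

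**Figure D3:**
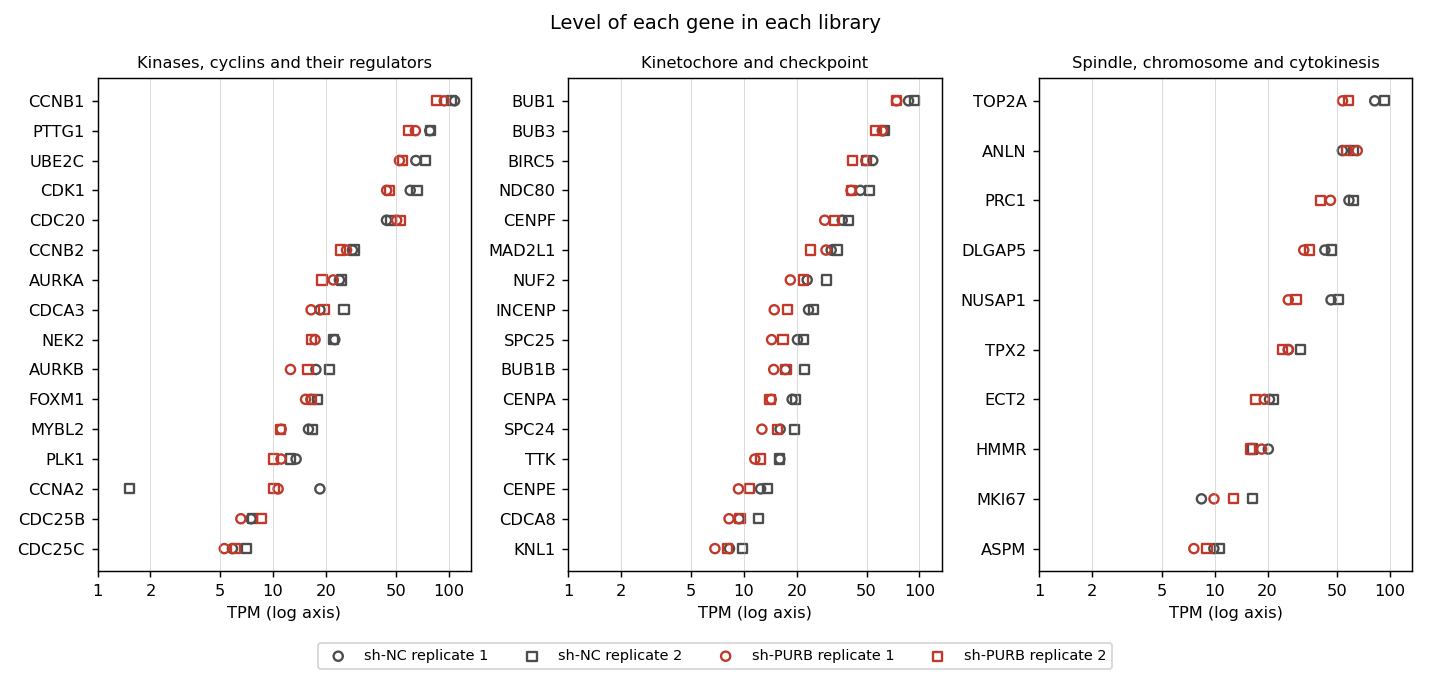
TPM of each of the 42 genes in the 4 libraries on a log axis, by role; grey marks are sh-NC, red marks are sh-PURB, circles are replicate 1 and squares replicate 2. CCNA2 in sh-NC replicate 2, at 1.51 TPM, is the farthest from its own replicate.

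Kinetochore and checkpoint genes all lay on the same side of control. The 16 had a difference below 0 as deposited (15 with recomputed TPM, where BUB3 turned to 0.06), with a range from -0.55 to -0.09 and a median of -0.29. In 14 of them the groups did not overlap, and 5 were lower at an unadjusted p under 0.05. With recomputed TPM these counts were 8 and 1. Of all tested genes 29.3% and 9.53% were lower by these rules as deposited, and 18.2% and 5.91% with recomputed TPM. The 1 of 16 is close to that last share. None was called in limma (adjusted p from 0.169 to 0.724).

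CENPA, the histone H3 variant that marks centromeres (chromosome 2, 26764289 to 26801067, plus strand), was at 18.8 and 19.7 TPM in control libraries against 14.3 and 14.1 TPM after knockdown. The groups stood clear of each other, at 0.737 of control and a difference of -0.42 (SE 0.11, limma adjusted p = 0.200). CENPE, the kinetochore motor, was at 12.4 and 13.6 TPM against 9.31 and 10.8 TPM, and CENPF, a large outer kinetochore protein, at 36.3 and 39.5 TPM against 28.9 and 32.9 TPM. Neither overlapped between groups.

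The NDC80 complex, the 4-subunit coupler that grips microtubules, was lower in each subunit. NDC80 was at 46.0 and 52.0 TPM in control libraries against 40.8 and 40.8 TPM after knockdown, NUF2 at 22.9 and 29.6 TPM against 18.4 and 21.8 TPM. SPC24 was at 16.1 and 19.4 TPM against 12.7 and 15.5 TPM, and SPC25 at 20.2 and 22.0 TPM against 14.4 and 16.7 TPM. All 4 were without overlap, at 0.737 (SPC25) to 0.832 (NDC80) of control. The summed level of the complex was 105 and 123 TPM in control libraries against 86.2 and 94.8 TPM after knockdown. NDC80 was 2.63 to 3.22 times its lowest partner across the libraries, and NDC80, NUF2, SPC25 and SPC24 kept this order of level in each. KNL1, the scaffold on which checkpoint proteins gather, was at 8.28 and 9.78 TPM against 6.83 and 8.03 TPM.

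Of the checkpoint proteins, BUB1, a kinase at the kinetochore, was the most abundant (86.7 and 93.4 TPM against 74.1 and 74.1 TPM), without overlap, with a difference of -0.28 (SE 0.094, limma adjusted p = 0.274). TTK, the MPS1 kinase that starts checkpoint signalling, was at 16.01 and 15.9 TPM in control libraries against 11.5 and 12.4 TPM after knockdown. Its groups did not overlap (0.751 of control, difference -0.39, SE 0.12, limma adjusted p = 0.241). MAD2L1, which binds CDC20 when the checkpoint is on, was at 31.4 and 33.9 TPM against 29.3 and 23.8 TPM. The ratio of CDC20 to MAD2L1 was 1.41 and 1.39 in sh-NC and 1.72 and 2.24 in sh-PURB, higher in both knockdown libraries. BUB1B (BUBR1) was at 17.2 and 22.1 TPM against 14.8 and 17.3 TPM, with overlap. BUB3, the partner of BUB1 and BUBR1, differed least, at 62.1 and 63.5 TPM against 61.4 and 56.5 TPM.

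The chromosomal passenger complex corrects faulty attachments and consists of AURKB, INCENP, survivin (BIRC5) and borealin (CDCA8). INCENP, its scaffold (chromosome 11, 62123973 to 62153163, plus strand), was at 23.3 and 25.0 TPM in control libraries against 14.9 and 17.7 TPM after knockdown. It was the lowest of the kinetochore group relative to control, at 0.673, with a difference of -0.55 (SE 0.13, limma adjusted p = 0.169). BIRC5 was at 54.2 and 49.95 TPM against 49.5 and 41.4 TPM, and CDCA8 at 9.38 and 12.1 TPM against 8.22 and 9.50 TPM, the latter with overlap. The summed level of these 4 genes was 104 and 108 TPM in control libraries against 85.2 and 84.4 TPM after knockdown.

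Spindle, chromosome and cytokinesis genes held both the lowest values and several that did not differ beyond their spread. The median difference was -0.24, with 9 of 10 below 0 (7 with recomputed TPM or median-ratio rescaling), 6 lower without overlap and 4 lower at an unadjusted p under 0.05. With recomputed TPM 5 were lower without overlap and 3 at an unadjusted p under 0.05. Of all tested genes 29.3% and 9.53% were lower by these rules as deposited, and 18.2% and 5.91% with recomputed TPM. NUSAP1, which bundles spindle microtubules near chromosomes (chromosome 15, 41332694 to 41381050, plus strand), was at 46.0 and 50.6 TPM in control libraries against 26.2 and 29.1 TPM after knockdown. The groups were far apart, with means of 48.3 ± 3.26 and 27.6 ± 1.99 TPM (SD, n = 2 each), which is 0.573 of control. Its difference was -0.78 with a standard error of 0.12, the largest of the 42 as deposited (limma adjusted p = 0.0812 over all genes and 0.0213 over protein-coding genes alone).

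TOP2A, the topoisomerase that untangles sister chromatids (chromosome 17, 40388516 to 40417950, minus strand), was at 81.6 and 92.7 TPM in control libraries against 53.5 and 58.0 TPM after knockdown. These means of 87.1 ± 7.86 and 55.8 ± 3.22 TPM (SD, n = 2 each) put it at 0.640 of control. The difference was -0.63 with a standard error of 0.11 (limma adjusted p = 0.0987 over all genes and 0.0358 over protein-coding genes alone). PRC1, which crosslinks the microtubules of the central spindle, was at 58.2 and 61.7 TPM against 45.6 and 39.9 TPM (0.714 of control, difference -0.48, SE 0.11, limma adjusted p = 0.159). DLGAP5, a spindle assembly protein, was at 42.4 and 46.5 TPM against 32.1 and 34.8 TPM. ASPM, at spindle poles, was at 9.88 and 10.7 TPM against 7.60 and 9.03 TPM. Each of these was lower in both sh-PURB libraries.

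The other genes of this group act in cytokinesis, on the spindle or on chromosomes. ECT2, the exchange factor that activates RhoA for the cleavage furrow, was at 20.5 and 21.6 TPM in control libraries against 19.2 and 17.1 TPM after knockdown, lower without overlap. ANLN, anillin, a scaffold of the contractile ring, was at 53.3 and 61.5 TPM against 64.8 and 56.2 TPM, so its groups overlapped and its difference of 0.07 lay within its standard error of 0.13. TPX2, the activator of AURKA on the spindle, was at 26.2 and 30.9 TPM against 26.3 and 24.4 TPM. HMMR, a spindle-associated hyaluronan receptor, was at 20.2 and 16.3 TPM against 18.5 and 16.01 TPM. MKI67, the proliferation marker Ki-67, was at 8.40 and 16.4 TPM in control libraries against 9.90 and 12.9 TPM after knockdown, with the knockdown libraries inside the range of the controls. For TPX2, HMMR and MKI67 the groups overlapped, and a difference was not detectable with these libraries.

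Other genes of mitosis were then counted from lists. Of all tested genes as deposited, 58.4% were below 0, and 29.3% were lower and 18.6% higher without overlap. With recomputed TPM these shares were 40.4%, 18.2% and 31.6%. All 12 mitotic kinesins were below 0 as deposited, with recomputed TPM and after median-ratio rescaling. As deposited, all 12 were lower without overlap, with a median of -0.43, and 9 were lower at an unadjusted p under 0.05 (background 9.53%). With recomputed TPM 11 were lower without overlap, with a median of -0.29, and 6 at an unadjusted p under 0.05 (background 5.91%). KIF20A, a motor of cytokinesis, was at 0.622 of control, KIF22 at 0.705 and KIF15 at 0.624. Of 29 centrosome, spindle and cytokinesis partners 25 were below 0, 17 were lower and 3 higher without overlap (median -0.25), with ARHGAP11A at 0.691, CKAP2 at 0.743 and FAM83D at 0.718 of control. Of 18 condensin and cohesin genes 16 were below 0 and 12 were lower without overlap (median -0.21). The cohesin subunits STAG2 and RAD21 were at 0.710 and 0.727 of control, and ESPL1, the separase that cuts cohesin, at 0.703. With recomputed TPM 18 of the 29 were below 0, with 12 lower and 5 higher without overlap, and 13 of the 18, with 7 lower and 1 higher. No gene of the 8 lists was called in limma over all genes, and the smallest adjusted p was 0.102, for CENPT.

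Checkpoint and outer kinetochore partners were all below 0 as deposited (15 of 15, 6 lower without overlap, median -0.17; with recomputed TPM 9 and 4), with ZWINT at 0.769, SPDL1 at 0.720 and KNSTRN at 0.805 of control. Inner kinetochore genes and linkers were more mixed: 17 of 24 were below 0, and 11 were lower and 3 higher without overlap (median -0.18). With recomputed TPM 13 were below 0, with 7 lower and 7 higher without overlap. Of all tested genes on that scale 40.4% were below 0, with 18.2% lower and 31.6% higher without overlap. HJURP, the chaperone that loads CENPA, was at 22.8 and 29.9 TPM in control libraries against 17.9 and 17.2 TPM after knockdown, without overlap. CENPT, which links centromeric chromatin to the NDC80 complex, went the other way, at 4.40 and 6.72 TPM in control libraries against 13.7 and 20.3 TPM after knockdown. Both knockdown libraries were above both controls, at 3.06 times control, with a difference of 1.45 (SE 0.27, limma adjusted p = 0.102 over all genes and 0.0153 over protein-coding genes alone). With the replicate number as a block its adjusted p in limma was 0.0408.

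APC/C subunits and inhibitors lay on both sides of 0, with 9 of 17 below 0 and a median of -0.0017 (5 lower and 4 higher without overlap). The median was 0.15 with recomputed TPM and 0.073 after median-ratio rescaling, where that of all tested genes was 0.077 and 0.0094. Under both, 2 were lower and 7 higher without overlap. Of all tested genes 18.2% were lower and 31.6% higher with recomputed TPM, and 23.6% and 23.9% after median-ratio rescaling. FZR1, the activator that replaces CDC20 after mitosis, was at 10.1 and 12.1 TPM in control libraries against 7.14 and 6.75 TPM after knockdown. FBXO5 (EMI1), an APC/C inhibitor, was at 0.690 of control and the subunit ANAPC13 at 1.38 times control. Among 22 genes of CDK1 control and the DREAM and MuvB complexes, 17 were below 0 and 10 were lower and 1 higher without overlap (median -0.19), with CDKN3 at 0.771, BORA (also among the centrosome partners) at 0.598 and CCNF at 0.701 of control. With recomputed TPM 12 of the 22 were below 0, with 5 lower and 3 higher without overlap. G1/S and DNA replication genes had 32 of 37 below 0, 19 lower and 2 higher without overlap and a median of -0.15. With recomputed TPM 19 were below 0, with 10 lower and 8 higher without overlap, against 40.4%, 18.2% and 31.6% of all tested genes. MCM4 was at 0.782 of control, PCNA at 0.755 and CCNE2 at 0.658. The differences between these lists were not tested.

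**Figure D4:**
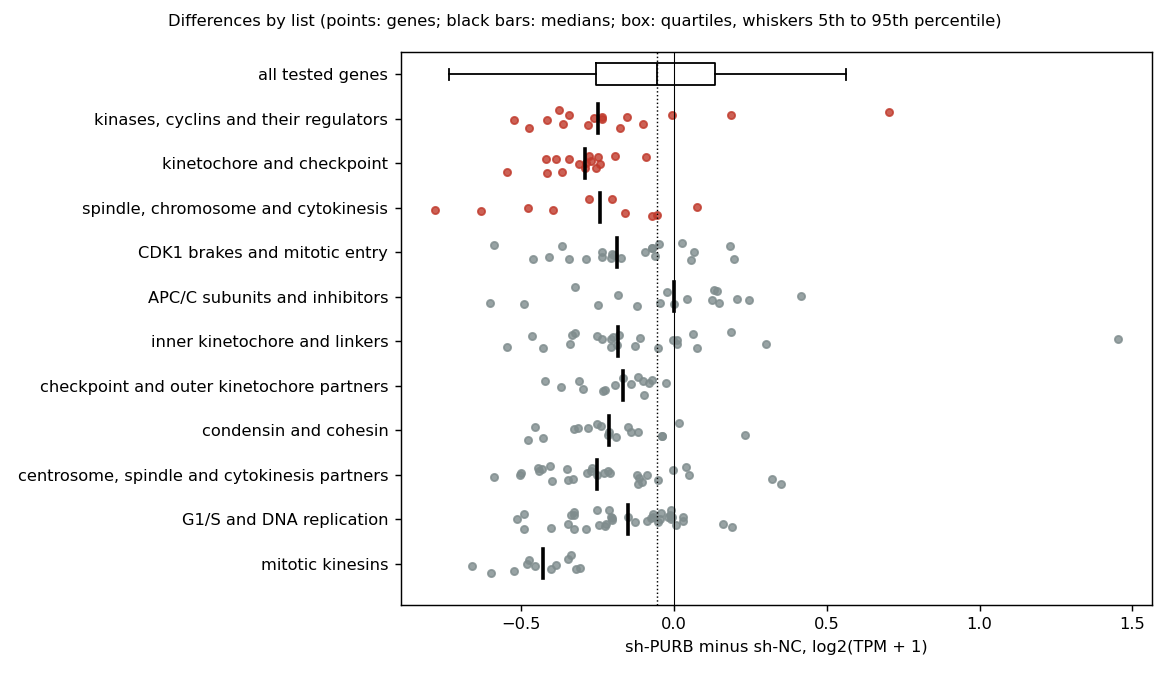
Differences between sh-PURB and sh-NC on the log2(TPM + 1) scale for each list, with genes as points and medians as black bars; the box shows all 14269 tested genes. The mitotic kinesins sit farthest left with a median of -0.43, APC/C genes sit at -0.0017, and CENPT is the point at 1.45.

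CDKN1A (p21), which inhibits cyclin-dependent kinases and acts upstream of DREAM, was at 36.5 and 48.5 TPM in control libraries against 73.8 and 67.9 TPM after knockdown (limma adjusted p = 0.143 over all genes and 0.0287 over protein-coding genes alone).

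**Figure D5:**
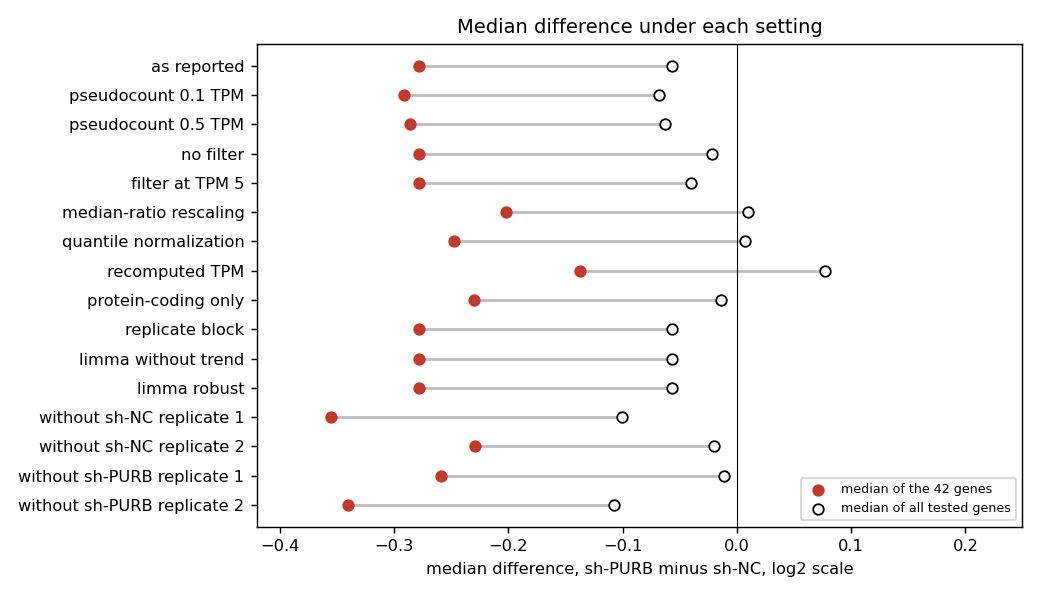
Median difference of the 42 genes (red) and of all tested genes (open circles) under each processing setting, on the log2 scale. The red median lay between -0.36, when sh-NC replicate 1 was left out, and -0.14, with recomputed TPM, and stayed left of the open circle in each row. Settings that rescale each library by a single factor leave the gap between the medians nearly fixed.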

How the data were processed

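Total RNA of U2OS cells was depleted of ribosomal RNA and sequenced with Illumina TruSeq chemistry, per the labels' protocols. The values deposited by the authors are TPM per gene symbol, 1 column for each of 4 libraries, and the table of all samples held the same values as the tables of single libraries. Tools listed in the submitters' processing notes, with no role given, are kallisto 0.44.0, bcl2fastq 2.19, DESeq2 and sleuth, beside human and mouse builds. Strand setting, annotation and the summing of transcripts are not given in the sources used here. A row without a name (0.921% to 1.66% of a library) was left out.

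Samples were grouped by their titles. Genes with at least 1 TPM in at least 2 libraries (14269 of 39519) were compared as log2(TPM + 1) in limma 3.58.1 under R 4.3.3, allowing the variance to follow the mean level. P-values were adjusted by Benjamini-Hochberg over every tested gene, and 0.05 was the threshold. This scale understates the change of low genes. The fit was tested on simulated data with 2 libraries per group and changes placed in genes of higher level. It called 10.7% of 2-fold changes and 83.3% of 4-fold changes, and 5.11% of its calls were false. Most 2-fold changes were therefore missed there. Gene types and positions came from GENCODE v29 (GRCh38), where 39440 symbols matched, and promoters from RefSeq. Figures used Python 3.11.15 and matplotlib 3.10.9.

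The 42 genes, their role groups and the lists were chosen with earlier results of these data known. Full statistics went to members called over all genes or over protein-coding genes alone and, in each role group, to the 3 with the smallest unadjusted p and the most abundant one. From each other list the 3 genes with the smallest unadjusted p were named. PURB and CDKN1A were named whatever their values. Of the genes these rules name, 2 are not reported here. CDC20, CCNA2 and ANLN were given statistics after their values were seen, and UBE2S was named after its values were seen. Alternatives were pseudocounts of 0.1 and 0.5, quantile and median-ratio scaling, a filter at 5 TPM or none, TPM recomputed without genes above 1% of a library and mitochondrial genes, protein-coding genes alone, a block for the replicate number, robust moderation or no trend in limma, and each library left out in turn.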

Additional observations from a re-analysis of the deposited data

How the results depend on the processing

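No gene of the 42 was called over all genes in any setting except the protein-coding fit, which called 2. The median of the 42 was -0.20 after median-ratio rescaling and -0.14 with recomputed TPM, and ran from -0.36 to -0.23 when a library was left out. The count of genes called over the whole table, 41, was unstable: 0 with a pseudocount of 0.1, no filter or limma without trend, 121 with the filter at 5 TPM, 80 after median-ratio rescaling, 118 after quantile normalization, 416 in the protein-coding fit, 125 with robust moderation, and 0 to 0 when a library was left out, a fit with fewer degrees of freedom. The difference of PURB was -0.91 in the protein-coding fit and passed there (limma adjusted p = 0.0311). The cause of these changes was not tested.

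With the replicate block 118 genes were called and 0 of the 42, and the block changed 1 named call, that of CENPT. The labels do not say that the numbers pair the libraries, and same-numbered libraries deviated together with a correlation of 0.193 across genes.

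Of 989 single-gene values under other settings 19 turned their sign, in 7 genes, and none of these genes passed the test. After median-ratio rescaling CDC25B was at 0.062, HMMR at 0.0025 and MKI67 at 0.019. With recomputed TPM BUB3 was at 0.060, CDC25B at 0.14, FOXM1 at 0.045, HMMR at 0.074 and MKI67 at 0.093. CDC25B was at 0.068 after quantile normalization and at 0.037 in the protein-coding fit. Leaving out a library gave ranges of -0.028 to 0.18 for ANLN, -0.77 to 2.18 for CCNA2, -0.18 to 0.16 for CDC25B, -0.22 to 0.071 for HMMR and -0.50 to 0.39 for MKI67. TPM keeps no depth, so what depth limits cannot be stated.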
